A study of Homo sapiens with 8 samples.

Results

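The alcohol dehydrogenase family was followed in RNA-seq of HT29, a human colon cancer cell line, with and without knockdown of ALDH1A1. The members were taken by symbol as ADH1A, ADH1B, ADH1C, ADH4, ADH5, ADH6 and ADH7, which make 7 of the 18664 genes and 11 of the 84798 transcript rows of the table. The shALDH1A1 group held 4 libraries of cells carrying a short hairpin RNA against ALDH1A1, and the CTRL group held 4 libraries of cells named shControl in their titles and WT in their genotype. Both groups were grown with 10% FBS. The sources do not name which hairpin was sequenced, and they do not say whether the replicates were separate cultures, so p-values measure only the spread between these libraries, which may be technical.

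Alcohol dehydrogenases are zinc enzymes that pass hydrogen from an alcohol to NAD, so that ethanol becomes acetaldehyde and retinol becomes retinaldehyde. Aldehyde dehydrogenases such as ALDH1A1, the target of the hairpin, then carry the aldehyde on to the acid. The human genes fall into classes. Class I (ADH1A, ADH1B and ADH1C) oxidizes most ethanol and is known best from liver. Class II is ADH4, a liver enzyme. Class III is ADH5, which is present in nearly every tissue, prefers formaldehyde bound to glutathione and also reduces S-nitrosoglutathione. Class IV is ADH7, an enzyme of the stomach and upper digestive tract with high activity on retinol, and class V is ADH6.

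The libraries differed in more than ALDH1A1. Counts assigned to genes totalled 536575 to 1908803 in the hairpin libraries and 291260 to 4137111 in the CTRL libraries, of which CTRL replicate 2 was the shallowest. ALDH1A1 itself stood at 1.63 ± 1.48 TPM (the authors' unit, transcripts scaled to length and to a fixed library total, SD, n = 4) with the hairpin, against 392 ± 83.0 TPM (SD, n = 4) for CTRL. A set of 30 genes that every cell uses took 0.0221 to 0.148% of all counts with the hairpin and 1.03 to 4.46% in CTRL libraries. Digestive genes of gastric chief cells, the source of pepsinogen, took up to 0.00505% in the hairpin libraries and 3.14 to 35.8% in CTRL libraries. All 6 tested genes of that list fell, which became 3 without shALDH1A1 replicate 1 and 4 without shALDH1A1 replicate 4. Over all 7971 tested genes 33% were lower (edgeR adjusted p under 0.05). Of 15 colon epithelium markers, CDX1, CDX2, MUC2 and CDH17 had at most 3 counts in any library of either group, while the keratin gene KRT8 had 4 to 108 counts with the hairpin and 15 to 3025 in CTRL libraries, and KRT20 had up to 26 and up to 454. Of the 5 tested, 0 passed the test. With RLE factors, library totals or DESeq2 3 of 5 were lower, with the reference genes as library size 1 was higher, and 3 of 6 were lower without CTRL replicate 2, 2 of 7 without CTRL replicate 4 and 1 of 6 without shALDH1A1 replicate 2. In bulk RNA, fewer cells of a type and less RNA per cell cannot be told apart. What part these differences have in the results was not tested.

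All 7 members lie side by side on the minus strand of chromosome 4, with no other gene of the table between them. In GRCh37 the cluster runs from ADH5 (99992129 to 100009952) through ADH4 (100044808 to 100078949), ADH6 (100123795 to 100140694), ADH1A (100197526 to 100212160), ADH1B (100226128 to 100242558) and ADH1C (100257654 to 100273903) to ADH7 (100333418 to 100356667). Each reference transcript has 9 exons. The class I genes are close copies, which bears on how reads can be told apart. Their coding sequences are 1125 bases long, and ADH1B matched ADH1C at 1075 of these positions (95.56%) and ADH1A at 1068 (94.93%). In contrast, ADH1B and ADH5 matched at 67.87% of aligned coding positions. The longest stretch shared without a mismatch was 170 bases between ADH1B and ADH1C and 13 bases between ADH1B and ADH5. Of the 50-base windows of ADH1C, 20.72% occur unchanged in ADH1B, so coding reads of that length are harder to assign among the class I genes than for the other members. The untranslated parts of the transcripts were not compared.

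The class I genes are printed in the 90-base window of a common exon where they differ most, coding positions 385 to 474 in exon 5, from the GENCODE reference transcripts on GRCh37. Capitals mark the 12 positions at which the 3 genes are not all alike. The windows lie at chr4:100205649-100205738 for ADH1A, chr4:100237148-100237237 for ADH1B and chr4:100266112-100266201 for ADH1C, on the minus strand.
ADH1A: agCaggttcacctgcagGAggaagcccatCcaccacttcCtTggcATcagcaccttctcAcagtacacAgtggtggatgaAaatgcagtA
ADH1B: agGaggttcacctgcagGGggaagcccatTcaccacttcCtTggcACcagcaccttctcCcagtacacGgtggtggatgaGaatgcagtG
ADH1C: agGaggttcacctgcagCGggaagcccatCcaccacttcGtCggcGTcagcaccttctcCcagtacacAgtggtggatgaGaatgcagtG
By contrast, coding positions 799 to 869, across the junction of exons 6 and 7, are the same in all 3 genes, and a read within these 71 bases cannot be assigned to any of them.
Class I: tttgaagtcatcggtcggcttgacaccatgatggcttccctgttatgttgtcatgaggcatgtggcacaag
The deposited counts of these genes were nearly whole, such as 844.98 for ADH1B and 154.02 for ADH1C in CTRL replicate 1.

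In CTRL cells the family was led by ADH1B, followed by ADH5, ADH1C and ADH7. The mean levels, which TPM gives per transcript length, were 69.5 ± 44.5 TPM for ADH1B, 38.5 ± 22.8 TPM for ADH5, 36.0 ± 20.8 TPM for ADH1C and 15.1 ± 9.72 TPM for ADH7 (SD, n = 4 each). Neighbours in this order overlapped in their ranges. ADH1A, ADH6 and ADH4 were at or near 0. In shALDH1A1 cells ADH1C had the highest mean, 15.9 ± 13.5 TPM, ahead of ADH5 with 6.43 ± 7.14 TPM and ADH1B with 5.09 ± 3.59 TPM (SD, n = 4 each), again with overlapping ranges, and ADH7 was not counted.

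**Figure D1:**
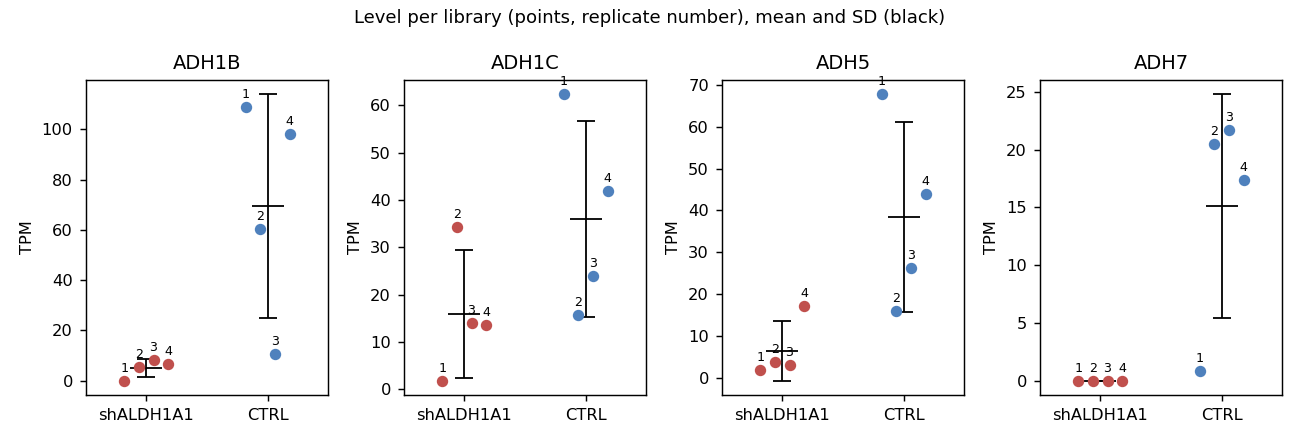
Level in TPM of ADH1B, ADH1C, ADH5 and ADH7 in each shALDH1A1 (red) and CTRL (blue) library, numbered by replicate, with the group mean and SD in black and an axis of its own for each gene. ADH1B and ADH7 show no overlap between groups (as did 34.9% of the tested genes in this direction), while for ADH1C and ADH5 the ranges meet. The lowest CTRL value of ADH7, in replicate 1, rests on 3 counts.

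ADH1B, a class I enzyme known for fast ethanol oxidation in the liver, fell in shALDH1A1 cells. It had 0, 7, 13 and 3 counts across shALDH1A1 replicates 1 to 4. For CTRL replicates 1 to 4 the numbers were 845, 24, 123 and 633. All of them were assigned to transcript NM_000668.6, and the other listed transcript, NM_001286650.2, had 0 counts in every library. The levels were 0, 5.51, 8.36 and 6.48 TPM in shALDH1A1 cells and 108.94, 60.48, 10.48 and 98.24 TPM in CTRL cells. CTRL replicate 3, the deepest library, lay close above the shALDH1A1 range, and the other CTRL libraries lay far above it. The groups did not overlap in TPM (p = 0.0286 by an exact two-sided permutation test, which cannot give less with 4 against 4), a separation in this direction that 34.9% of the tested genes shared. In CPM (counts scaled to a common library total) with TMM factors, which correct for library composition, they did overlap, at 25.5 in shALDH1A1 replicate 3 against 16.8 in CTRL replicate 3 (exact two-sided permutation test, p = 0.0571). The log2 fold change was -3.82 (SE 1.33, adjusted p = 0.027, edgeR quasi-likelihood test), and a gene counts as called, or as having fallen or risen, at an adjusted p under 0.05.

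The ADH1B call was lost without shALDH1A1 replicate 1 (log2 fold change -3.18, edgeR adjusted p = 0.0854), without shALDH1A1 replicate 4 (-3.23, edgeR adjusted p = 0.0836) and with the 30 reference genes as library size (-1.16, edgeR adjusted p = 0.403). Over all tested genes 33% were called lower. Of 7 fibroblast markers, all tested, 5 fell and 2 (DCN and COL1A1) did not pass. The 5 became 2 without shALDH1A1 replicate 1 and 1 with the reference genes as library size. They became 7 with RLE factors, library totals or DESeq2, and without CTRL replicate 2 or CTRL replicate 4. Together the markers took 0.00063 to 0.0164% of all counts with the hairpin and 0.0525 to 0.228% in CTRL libraries. DCN, which encodes the matrix proteoglycan decorin, had 0, 5, 51 and 8 counts across shALDH1A1 replicates 1 to 4, against 1883, 71, 528 and 867 across CTRL replicates 1 to 4. COL1A1, a fibrillar collagen, ranged from 2.07 to 64.04 TPM in shALDH1A1 and from 10.7 to 61.65 TPM in CTRL libraries, and POSTN, a matrix protein of fibroblasts, had 0 counts in every shALDH1A1 library. Of 6 smooth muscle markers, all tested, 0 passed, while 6 were lower with RLE factors or library totals. They took 0.00016 to 0.0365% of all counts with the hairpin and 0.0275 to 2.74% in CTRL libraries. Of 6 fat markers 0 were tested, with 0.00072 to 0.00261% of all counts with the hairpin and 0.00234 to 0.0148% in CTRL libraries. The part of fibroblasts, smooth muscle or fat cells in the ADH1B result was not tested.

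ADH1C, the class I gene next to ADH1B, did not pass the test. It had 1, 14, 7 and 2 counts across shALDH1A1 replicates 1 to 4, against 154, 2, 89 and 86 across CTRL replicates 1 to 4. The levels were 1.80, 34.19, 13.94 and 13.47 TPM in shALDH1A1 cells and 62.38, 15.58, 23.97 and 41.94 TPM in CTRL cells. The groups overlapped, with shALDH1A1 replicate 2 above CTRL replicates 2 and 3. The log2 fold change was -1.26 (SE 0.98, adjusted p = 0.277, edgeR quasi-likelihood test), and the difference in TPM gave p = 0.143 in the exact two-sided permutation test. ADH1C became a call without shALDH1A1 replicate 2 (-2.93, edgeR adjusted p = 0.0227) and without CTRL replicate 2 (-2.52, edgeR adjusted p = 0.0085). It was also called lower with RLE factors, with library totals, with DESeq2 and with a weaker or no filter on low counts. With the reference genes as library size its sign turned (1.48, edgeR adjusted p = 0.204).

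ADH5, the class III enzyme that clears formaldehyde with glutathione, fell in shALDH1A1 cells. It had 2, 3, 3 and 5 counts across shALDH1A1 replicates 1 to 4, against 332, 4, 193 and 179 across CTRL replicates 1 to 4, all on transcript NM_000671.4. The levels were 1.85, 3.74, 3.05 and 17.08 TPM in shALDH1A1 cells and 67.85, 15.91, 26.11 and 44.04 TPM in CTRL cells. The ranges in TPM touched between shALDH1A1 replicate 4 and CTRL replicate 2, the shallowest library of each group, whose values rest on 5 and 4 counts (exact two-sided permutation test, p = 0.0571). On the TMM scale the groups stood apart, at 1.58 to 5.89 against 12.1 to 81.7 CPM (exact two-sided permutation test, p = 0.0286). What share of the tested genes stood apart in this direction on the TMM scale is not given here. In TPM that share was 34.9%, so the separation is not taken as particular to ADH5. The log2 fold change was -3.48 (SE 1.04, adjusted p = 0.0116, edgeR quasi-likelihood test), and it stayed a call without each library in turn, at -4.36 to -2.99. With the reference genes as library size no difference was called and the sign turned (0.26, edgeR adjusted p = 0.865).

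The genes that fell have unlike starts, shown here beside ADH1C as the last 150 bases before the start site (RefSeq, GRCh38.p14, minus strand). Capitals mark CCAAT in the class I genes and GGGCGG, a GC box, in ADH5, each read on either strand (as ATTGG and CCGCCC on the other), with no overlap between these motifs. The stretches lie at chr4:99321402-99321551 for ADH1B, chr4:99352747-99352896 for ADH1C and chr4:99088789-99088938 for ADH5.
ADH1B: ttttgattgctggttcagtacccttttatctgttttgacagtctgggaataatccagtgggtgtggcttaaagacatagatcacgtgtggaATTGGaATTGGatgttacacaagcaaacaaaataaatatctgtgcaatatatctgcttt
ADH1C: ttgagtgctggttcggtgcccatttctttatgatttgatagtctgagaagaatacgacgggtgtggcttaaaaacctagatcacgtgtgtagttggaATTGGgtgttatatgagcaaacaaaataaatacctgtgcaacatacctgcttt
ADH5: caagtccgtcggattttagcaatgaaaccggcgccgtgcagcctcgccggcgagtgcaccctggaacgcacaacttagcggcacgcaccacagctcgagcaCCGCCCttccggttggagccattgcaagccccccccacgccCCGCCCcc
Over the 250 bases before the start, ADH5 held 21 CpG dinucleotides and 58.0% G and C. ADH1B held 1 CpG and 32.4% G and C, and ADH1C held 6 CpG and 35.6%. The median over 35116 promoters was 11 CpG and 58.0%. GGGCGG occurs in 42.6% of these promoters and, of the 7 members, in ADH5. CCAAT occurs in 32.0% of them and, among the members, in ADH1A, ADH1B, ADH1C and ADH4. A match is a description of the letters and not a site.

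ADH7, the class IV enzyme of gastric and upper digestive epithelium, was counted in CTRL cells alone. It had 0 counts in all 4 shALDH1A1 libraries and 3, 4, 131 and 60 across CTRL replicates 1 to 4. The CTRL levels were 0.79, 20.52, 21.75 and 17.37 TPM, so that CTRL replicate 1 was low and the other 3 were alike. The groups did not overlap (difference in mean log2 of TMM-scaled CPM plus 1, -3.36, exact two-sided permutation test, p = 0.0286). That p is the smallest that 4 against 4 allow. The separation rests on the 3 counts of CTRL replicate 1, which are 1.29 CPM of its library total. A count of 0 allows up to 1.57 to 5.59 CPM in the shALDH1A1 libraries (counting error only). At these depths their 0 counts cannot be told apart from the level of CTRL replicate 1. In TPM, 34.9% of the tested genes also had every shALDH1A1 library below every CTRL library. Against a floor of 3 counts over the shALDH1A1 group, ADH7 was at least 15.1-fold lower with TMM factors, at least 43.3-fold lower with library totals and at least 1.74-fold lower with the reference genes as library size. The floor covers counting error only. Without 1 library at a time the TMM bound was 9.53 to 22.6, lowest without shALDH1A1 replicate 1 and highest without CTRL replicate 1. The filter on low counts kept ADH7 out of the edgeR test.

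The reads of ADH7 were not placed on the same transcript in each CTRL library. NM_000673.4 held all 60 counts in CTRL replicate 4 and 76.25 of the 131 in CTRL replicate 3, while NM_001166504.1 held the 3 and 4 counts of CTRL replicates 1 and 2 and 54.75 in CTRL replicate 3. Stomach markers were measured beside it. The gastric mucous cell list took 0.0149 to 0.0445% of all counts with the hairpin and 0.0786 to 1.88% in CTRL libraries. All 8 genes were tested, with 3 lower and 5 not past the test, near the 33% of all tested genes called lower. The 3 became 1 without shALDH1A1 replicate 1, shALDH1A1 replicate 4 or CTRL replicate 3, 6 without shALDH1A1 replicate 2, shALDH1A1 replicate 3 or CTRL replicate 4, and 7 without CTRL replicate 2, and with the reference genes as library size 0 were lower and 1 higher. GKN1, a secreted gastric protein, ranged from 3 to 188 counts in the hairpin libraries and from 39 to 48947 in CTRL libraries, and TFF1, a mucus-associated peptide, from 4 to 270 and from 36 to 6476. Neither passed the test (edgeR adjusted p = 0.0717 and 0.352), and both overlapped between the groups in TPM. VSIG1, of the same list, was at 1.07 on the log2 scale (edgeR adjusted p = 0.449). Of 6 parietal cell markers, the acid-secreting type, 4 were tested and all 4 fell, led in level by CBLIF, the intrinsic factor gene, with at most 2 counts in shALDH1A1 and 151 to 16393 in CTRL libraries. CTRL replicate 1, with 3 counts of ADH7, had 1182 counts of GKN1. Esophageal markers had 0 counts in every CTRL library. The part of gastric RNA in the ADH7 result was not tested.

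The remaining members were hardly detected. ADH1A had 1 count in all, in CTRL replicate 4 (0.49 TPM), and ADH6 had 1 count in all, in CTRL replicate 3 (0.13 TPM). ADH4 had 0 counts in the 8 libraries, and a count of 0 allows up to 0.725 CPM in CTRL replicate 3 and up to 10.3 CPM in CTRL replicate 2, the deepest and the shallowest library (counting error only). No difference between groups was detectable for these 3 genes at this depth. Among liver markers ALB, the gene of serum albumin, was at 0 in every shALDH1A1 library. TF, which encodes transferrin, had 3035 to 14836 counts in the hairpin libraries and 232 to 2079 counts in CTRL libraries.

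Of the 7 members, 3 had enough counts for the edgeR test, and 2 of these (ADH1B and ADH5) were called lower and 0 higher. Over all 7971 tested genes, 33% were called lower and 2.6% higher, so a member called lower is a frequent outcome in these libraries. At the stricter thresholds named in the study's methods, an adjusted p under 0.001 with an absolute log2 fold change over 1, 0 of the 3 members passed in edgeR. The middle log2 fold change (median) among the tested genes was -1.45 with TMM factors and 1.88 with the reference genes as library size, so the position of a member against that median is given too. Relative to it ADH1B stood at -2.37, ADH5 at -2.03 and ADH1C at 0.19 with TMM factors, and at -3.04, -1.62 and -0.40 with the reference genes as library size. Over 21 settings the relative value ran from -3.04 to -1.55 for ADH1B, from -2.45 to -0.76 for ADH5 and from -0.70 to 1.06 for ADH1C. A change of library size moves every gene of a library alike, so these settings are not separate checks on the order.

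**Figure D2:**
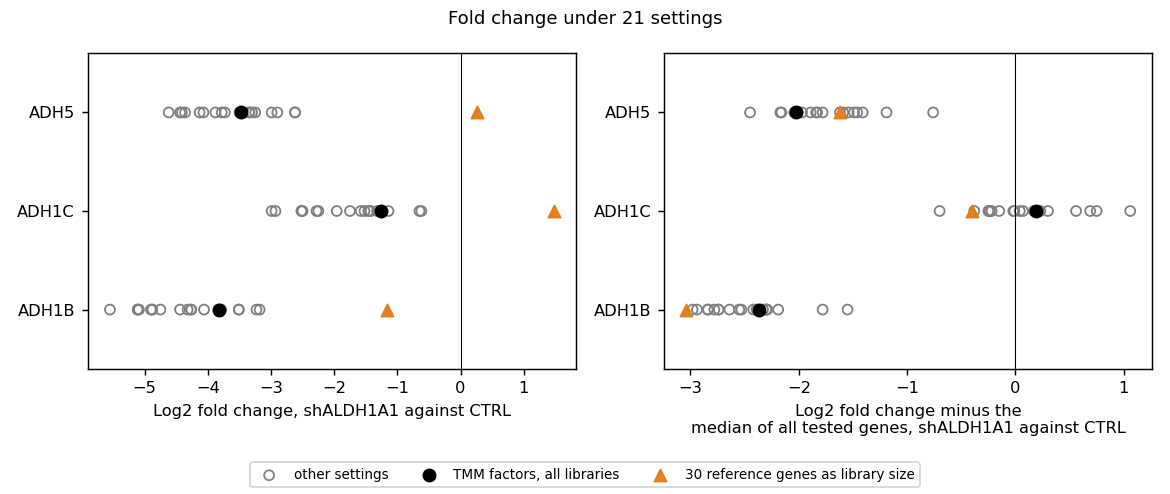
Log2 fold change of ADH1B, ADH1C and ADH5 under 21 settings (left) and the same minus the median of all tested genes (right), with TMM factors and all libraries in black, the 30 reference genes as library size as orange triangles and the other settings as open grey circles. In the right panel ADH1B and ADH5 stay below 0, while ADH1C lies on both sides of it.

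Summed over the 7 members, the family held 3, 24, 23 and 10 counts across shALDH1A1 replicates 1 to 4, against 1334, 34, 537 and 959 across CTRL replicates 1 to 4. In CPM of the library totals, the lowest shALDH1A1 library had 1.57 (exact 95% interval 0.324 to 4.59) and the highest 18.6 (8.94 to 34.3). The CTRL libraries ran from 117 (80.8 to 163) in replicate 2 to 575 (539 to 613) in replicate 4. The sums in TPM were 3.65, 43.44, 25.35 and 37.03 in shALDH1A1 and 239.96, 112.49, 82.44 and 202.08 in CTRL libraries. The intervals of the groups did not meet, but they cover counting error and not the spread between libraries. With library totals, 4095 of 7971 tested genes were called lower in edgeR and 60 higher. The 30 reference genes held 421, 2039, 2485 and 508 counts across shALDH1A1 replicates 1 to 4. Across CTRL replicates 1 to 4 they held 103437, 3001, 61324 and 39346. Lower counts in the hairpin libraries were thus not particular to the family, whose sum was not scaled to these genes.

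**Figure D3:**
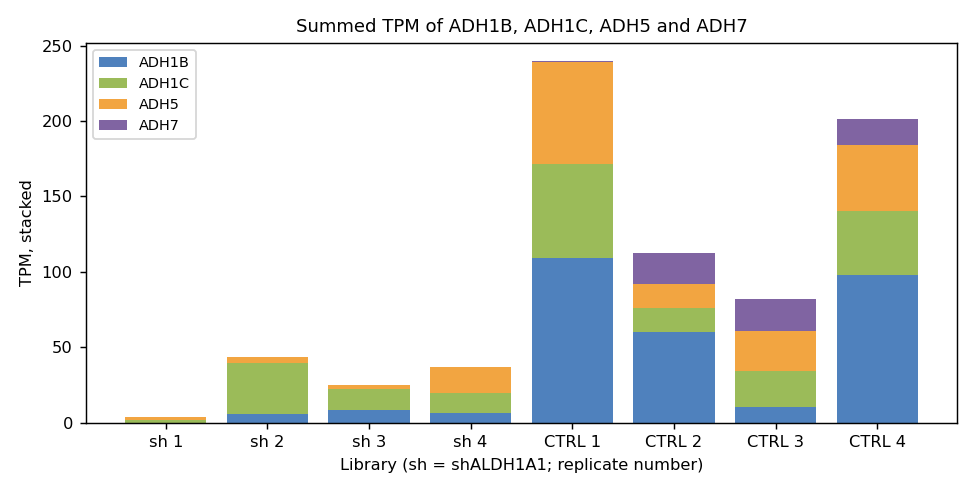
Summed TPM of ADH1B, ADH1C, ADH5 and ADH7 in each library, stacked by gene, with shALDH1A1 (sh) on the left and CTRL on the right and the axis starting at 0. The tallest shALDH1A1 bar (43.44 TPM) is shorter than the shortest CTRL bar (82.31 TPM), and ADH7 is seen in CTRL bars alone.

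The makeup of the family also varied. ADH1B made up 0 to 33.0% of the family's TPM in shALDH1A1 libraries, and 45.4, 53.8, 12.7 and 48.6% across CTRL replicates 1 to 4. Ratios of counts within a library do not depend on its scale. For each count of ADH1C there were 0, 0.499, 1.85 and 1.5 counts of ADH1B across shALDH1A1 replicates 1 to 4, against 5.49, 12.0, 1.38 and 7.36 across CTRL replicates 1 to 4. CTRL replicate 3 again stood with the shALDH1A1 libraries. For each count of ADH5 there were 0.464, 0.500, 0.461 and 0.480 counts of ADH1C across CTRL replicates 1 to 4, a narrow range given that CTRL replicate 2 held 2 and 4 counts of these genes. In shALDH1A1 replicates 1 to 4 the same ratio was 0.500, 4.67, 2.33 and 0.400, with replicates 2 and 3 high. These ratios rest on 0 to 14 counts per gene in the hairpin libraries and are given as a description.

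**Figure D4:**
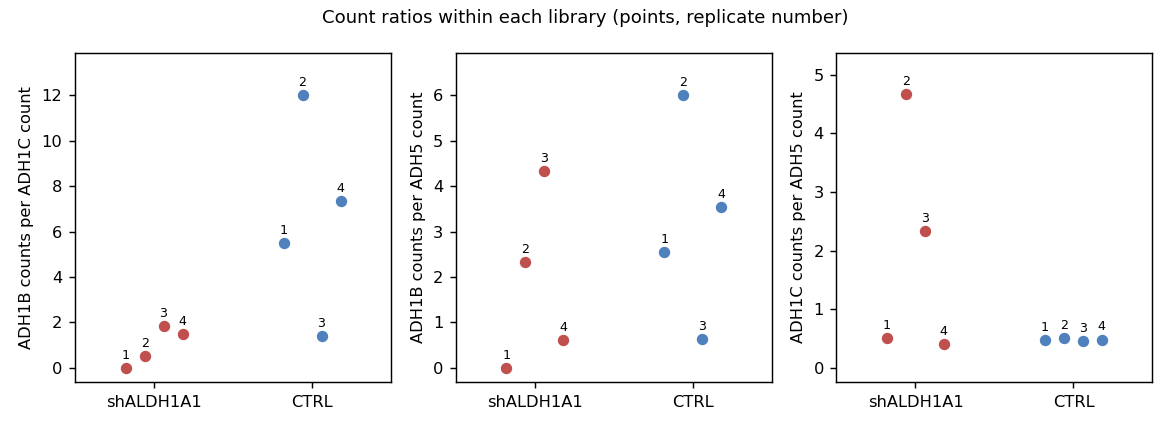
Counts of ADH1B per count of ADH1C (left), of ADH1B per count of ADH5 (middle) and of ADH1C per count of ADH5 (right) within each library, with shALDH1A1 in red and CTRL in blue and points numbered by replicate. The right panel shows the 4 CTRL libraries between 0.461 and 0.500, and shALDH1A1 libraries between 0.400 and 4.67.

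Among the other genes of ethanol and acetaldehyde oxidation, 3 of 7 tested genes fell, 0 rose and 4 did not pass (median log2 fold change -2.60, against -1.45 over all tested genes). With the reference genes as library size 2 fell and 2 rose. Without CTRL replicate 2, 6 fell and 1 rose, and 5 fell without shALDH1A1 replicate 2 or 3. Besides ALDH1A1, the target of the hairpin, whose fall is set by the design, the genes that fell activate acetate to acetyl-CoA. ACSS2, the cytosolic form, had 0 counts in the hairpin libraries and 148, 5, 486 and 79 across CTRL replicates 1 to 4, and was at least 54.7-fold lower against the same floor with TMM factors. ACSS1, the mitochondrial form, had a log2 fold change of -5.08 (SE 1.24, adjusted p = 0.00298, edgeR). ALDH2, the mitochondrial enzyme that clears acetaldehyde, had 2.23 (adjusted p = 0.196, edgeR), and ALDH3A2, a fatty aldehyde dehydrogenase, had -2.60 (adjusted p = 0.064, edgeR).

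Around the class III reaction, 5 of 8 tested genes of formaldehyde and glutathione handling fell, 0 rose and 3 did not pass (median log2 fold change -3.46), while 1 fell and 2 rose with the reference genes as library size. Without CTRL replicate 2, 8 fell and 2 rose of 10 then tested. ESD encodes S-formylglutathione hydrolase, which acts directly after ADH5. It had 0, 1, 3 and 0 counts across shALDH1A1 replicates 1 to 4, against 220, 8, 87 and 70 across CTRL replicates 1 to 4, a log2 fold change of -4.22 (SE 1.16, adjusted p = 0.00697, edgeR) that became -1.56 (adjusted p = 0.219, edgeR) with the reference genes as library size. CBR1 and AKR1A1, carbonyl reductases that, like ADH5, can reduce S-nitrosoglutathione, both fell. CBR1 had 0 counts in the hairpin libraries and was at least 61.0-fold lower with TMM factors, and AKR1A1 had a log2 fold change of -3.73 (SE 1.07, adjusted p = 0.00918, edgeR). TXNRD1, thioredoxin reductase, had -3.57 (SE 1.06, adjusted p = 0.0112, edgeR).

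The retinol route moved in both directions. Of 9 tested genes 3 fell, 1 rose and 5 did not pass (median log2 fold change -0.999), and with the reference genes as library size 2 fell and 4 rose. On both scales the genes that fell include ALDH1A1, the target of the hairpin, whose fall is set by the design. LRAT, which stores retinol as its ester, rose by 4.05 on the log2 scale (SE 1.13, adjusted p = 0.00742, edgeR). Its counts were 12, 17, 17 and 5 across shALDH1A1 replicates 1 to 4, against 0, 2, 4 and 4 across CTRL replicates 1 to 4. LRAT was no longer called without CTRL replicate 1 or CTRL replicate 3, and without CTRL replicate 2 the list held 6 genes that fell and 2 that rose. RDH14, a retinol dehydrogenase of another protein family, had 0 counts in the hairpin libraries and was at least 10.6-fold lower with TMM factors. ADH7, the member with high retinol activity, is described above.

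Relatives by fold and by reaction were counted in the same way. Of 7 tested members of the wider medium-chain dehydrogenase family, 5 fell, 0 rose and 2 did not pass (median log2 fold change -3.19), and 0 fell and 2 rose with the reference genes as library size. The 4 with the smallest p were CRYZL1 (-3.61, edgeR adjusted p = 0.00844), CRYZ, a quinone reductase (-3.71, edgeR adjusted p = 0.0101), PTGR1, prostaglandin reductase (-4.03, edgeR adjusted p = 0.0102), and VAT1 (-3.19, edgeR adjusted p = 0.0133). Without shALDH1A1 replicate 4 the 5 calls became 2, and without shALDH1A1 replicate 1 they became 3. Of 12 tested alcohol and carbonyl reductases outside the family, 8 fell, 0 rose and 4 did not pass (median -3.76), and 4 fell and 1 rose with the reference genes as library size. DCXR, which reduces dicarbonyls and xylulose, had -7.05 (SE 1.38, adjusted p = 0.000719, edgeR), AKR1C2, a steroid reductase with near-identical paralogs and so uncertain counts, had -6.56 (SE 1.48, adjusted p = 0.00152, edgeR), and AKR7A3, an aldehyde reductase, had -6.19 (SE 1.39, adjusted p = 0.00154, edgeR). The lists share ALDH1A1, ALDH2, CBR1 and AKR1A1, and every count stands beside the 33% of all tested genes called lower.

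**Figure D5:**
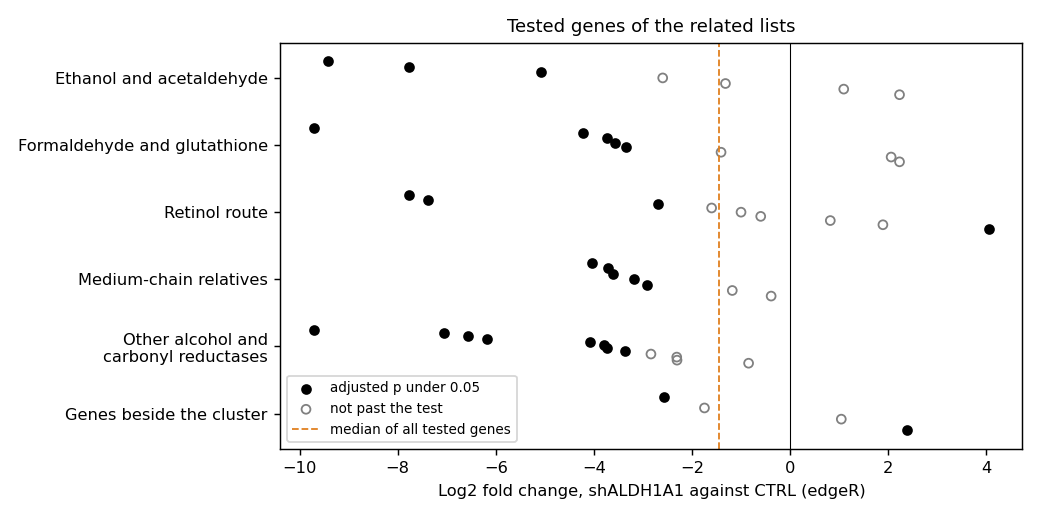
Log2 fold change (edgeR, TMM factors) of the tested genes in the related lists, filled where the adjusted p was under 0.05 and open where not, with the median of all tested genes (-1.45) as a dashed line. LRAT in the retinol row and DAPP1 beside the cluster are the filled points above 0, and fitted values of genes with 0 shALDH1A1 counts (CBR1, ACSS2 and RDH14) depend on the fit and are no bounds.

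The tested genes beside the cluster were called in both directions. Of the 6 nearest genes on each side, 4 were tested, of which 1 fell and 1 rose (median log2 fold change -0.35). Over all tested genes 33% were called lower and 2.6% higher. Whether the region changed as a whole was not tested. LAMTOR3, a lysosomal scaffold of mTOR signaling, had -2.56 (SE 0.92, adjusted p = 0.031, edgeR), and DAPP1, an adaptor of B-cell signaling, had 2.38 (SE 0.90, adjusted p = 0.039, edgeR). With the reference genes as library size LAMTOR3 was at 1.5 (edgeR adjusted p = 0.268) and DAPP1 at 5.98 (edgeR adjusted p = 0.0117), and neither call held without CTRL replicate 1. Without CTRL replicate 3, CTRL replicate 4 or shALDH1A1 replicate 2, 0 of the tested neighbours were called higher. METAP1, the direct neighbour of ADH5 and a methionine aminopeptidase, had 0, 1, 0 and 0 counts across shALDH1A1 replicates 1 to 4, against 98, 1, 97 and 25 across CTRL replicates 1 to 4, and did not reach the test. On the other side C4orf17, the direct neighbour of ADH7, had 0 counts in every library.

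The genes whose level followed each tested member most closely over the 8 libraries were searched among 13996 genes averaging 1 TPM or more, by Pearson's r of log2(TPM + 1). ADH1B was most like STXBP6 (r = 0.986), RPS23 (0.983) and RPL41 (0.983). ADH1C was most like PEA15 (0.975), ARPC1A (0.965) and CSTB (0.960), and genes most like ADH5 included VAT1 (0.988) and UBL7 (0.984). VAT1, itself a relative of the family by fold, had 2, 2, 3 and 4 counts across shALDH1A1 replicates 1 to 4, against 248, 4, 161 and 97 across CTRL replicates 1 to 4. The points share their libraries and depths, and the group difference enters every r, so these values are a description.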

How the data were processed

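RNA-seq of 4 shALDH1A1 and 4 CTRL HT29 libraries was analysed. The authors deposited expected counts and TPM per transcript. These expected counts carry no scaling for depth, and 64.7% of those above 0 hold a fraction (tolerance 0.001). The TPM values were scaled by the authors for transcript length and library total. Per the study's methods, reads were processed with CASAVA and FASTQC, mapped by HISAT on hg19 and counted by RSEM, while the submitters' processing notes name Bowtie2, BWA and GRCh38.p13. Which build the deposited values rest on could not be settled. Gene coordinates are those of GENCODE on GRCh37, and promoter sequences those of RefSeq on GRCh38.p14.

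Counts and TPM were summed per gene symbol (18664 genes) and counts were rounded. edgeR 4.0.16 in R 4.3.3 (genes kept by filterByExpr at count 10 and total 15, TMM scaling, two-sided quasi-likelihood F test on all 8 libraries with no covariate, Benjamini-Hochberg over 7971 genes) was the test for single genes, with calls at an adjusted p under 0.05. Standard errors (SE) were taken as the size of the log2 fold change over the root of F. The common dispersion was 0.853. The step was tested on simulated data. Single values were also compared with exact two-sided permutation tests. The differential test named in the study's methods was not rerun. Alternatives used RLE, upper-quartile or no factors, 30 reference genes as library size, other filters, DESeq2 1.42.0, limma 3.58.1 on log2(TPM + 1) and log2(TPM + 0.1), a replicate block and leaving out each library. Intervals are exact binomial. The reads carry no molecular identifiers and may be copies, and both intervals and floors speak of counting error alone. The libraries held 291260 to 4137111 counts, which limits the precision of every member.

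The members and gene lists were chosen with earlier results of these data known. All 7 members are named, with ALDH1A1, the 3 genes most alike per tested member, up to 4 tested genes per related list with the smallest p, and the 2 genes of highest mean TPM per group in the marker lists, of which those bearing on a member are printed. Of the genes so chosen, 2 are not reported here. DCN, GKN1 and TFF1 came under that rule. ALDH2, ALB, VSIG1, METAP1, C4orf17, KRT20 and the 4 colon markers near 0 were named after their values were seen. Coding sequences were aligned with Biopython 1.88 and figures drawn with matplotlib 3.10.9.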

Additional observations from a re-analysis of the deposited data

Results flagged for a closer look

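ADH1A in CTRL replicate 4 stood apart from the other CTRL libraries, at 0.54 on the log2 scale of TMM-scaled CPM plus 1, against 0 in the other 3. ADH6 in CTRL replicate 3 stood apart in the same way, at 0.18 against 0 in the other 3. Each value rests on 1 count. These are 2 of 11 groups of 4 libraries with a spread that were compared. Chance alone marks about 5% of groups with varied values. With 0 in the other 3 libraries any single count stands apart, so that rate is no measure for these 2 groups.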

How the results depend on the processing

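The direction of ADH1B was the same under 20 alternatives. That of ADH7 is fixed by its 0 counts in shALDH1A1 libraries. With the reference genes as library size ADH1B stood at -1.16, ADH1C at 1.48 and ADH5 at 0.26, and 0 members passed the threshold. Of 3767 genes called on that scale 413 were lower and 3354 higher, against 2633 and 207 with TMM factors. ADH1C, no call with TMM factors, was lower with RLE factors (-2.50), library totals (-2.99), no filter on low counts (-2.28), a minimum count of 5 (-2.25) and DESeq2 (-2.51). Leaving out each library gave -5.11 to -3.18 for ADH1B, -2.93 to -0.62 for ADH1C, -4.36 to -2.99 for ADH5, 2 to 4 members past the threshold and 2079 to 7711 genes in all, lowest without CTRL replicate 1 and highest without CTRL replicate 2. The main count of 2840 genes became 5095 with RLE factors, 4307 with upper-quartile factors, 8061 without the filter, 6265 with a minimum count of 5, 5775 with DESeq2, 5528 with limma on log2(TPM + 1), 5359 with limma on log2(TPM + 0.1), 4985 with limma on every gene above 0 and 396 at the study's thresholds. Members past the threshold were 4 without the filter, where ADH7 and ADH1C joined, and 0 at the study's thresholds. The cause of these changes was not tested. The filter sets which genes are tested, but values of the same genes also moved without it, such as ADH1B from -3.82 to -4.90. With the replicate number as a block ADH1B stood at -4.32, ADH1C at -1.75 and ADH5 at -3.25, and 3541 genes were called, with the members' calls as in the fit without it. Libraries of the same number showed no common deviation (correlations -0.347, -0.064, -0.179 and 0.150 for numbers 1 to 4). Pairs of unlike number ran from -0.321 to 0.385. With 4 libraries per group such values cannot exclude a shared batch or culture. Counts of 0 to 14 per member in the shALDH1A1 libraries limit every value.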
